A study of Mus musculus with 32 samples.

Results

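ATAC-seq, which marks open DNA through insertion of a transposase, was used to compare LPS with PBS in haematopoietic stem and progenitor cells (HSPCs) from the marrow of naive mice. The comparison holds 14 of the 32 samples of the series, which are 7 biological replicates of 2 technical libraries each. Each replicate has 1 deposited peak list, and members were chosen by the label naive together with the treatment, which gave 7 of the 16 lists: 3 LPS lists and 4 PBS lists. Both groups were made in the same way. Irradiated C57BL/6J recipients (CD45.2) were given 200000 marrow cells homozygous for the doxycycline-inducer rtTA but null for the human MLL-AF9 transgene (CD45.1), together with 800000 wild-type marrow cells (CD45.1+/2+). Doxycycline began 6 to 8 weeks later, ran for 5 weeks and was withdrawn for 4 weeks, so all naive mice had the drug but no leukaemia. Mice were then injected with LPS or with PBS, and the wild-type donor HSPCs (Lin- cKit+ Sca1+) were sorted 24 hours after the injection. The labels state neither the age nor the sex of donors or recipients, nor the LPS dose, and the cells had all been through transplantation. The AF9-experienced mice, which received marrow homozygous for inducible MLL-AF9 and rtTA in place of the null marrow and otherwise went through the same steps, served as a second set of 5 LPS and 4 PBS lists.

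LPS, the lipopolysaccharide of Gram-negative bacteria, binds CD14 and Toll-like receptor 4 (TLR4), and the signal runs through adaptor proteins to the transcription factors NF-kB, AP-1 and interferon regulatory factors. In myeloid cells these factors bind enhancers and promoters of cytokine, chemokine and feedback-inhibitor genes and raise their accessibility. HSPCs carry TLR4 themselves and also sense the cytokines that other marrow cells release, and after LPS they enter the cell cycle and favour myeloid output.

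Peak lists carry no shared scale, so each region was described by a percentile rank. Every list was shortened to the same number of autosomal peaks, taken in order of the authors' -log10 p, and overlapping peaks were merged across lists into regions. A value of 100 is the strongest peak of a list, and 0 means that the shortened list held no peak there. One cut kept 19100 peaks in all 16 lists, the length of the shortest list ("shortest lists"). A deeper cut kept 59600 peaks in the 13 longer lists ("deeper lists"), without naive LPS 3, naive PBS 1 and AF9-experienced PBS 1, and leaves 2 LPS and 3 PBS lists of naive mice. Differences are LPS minus PBS in percentile points with a standard error (SE). They were tested with limma over every region that at least 3 lists held. A call needed a p under 0.05 after Benjamini-Hochberg adjustment. A rank can move because other regions move, and in these bulk samples a site open in more cells and a site more open per cell cannot be told apart.

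The 7 lists differed in ways that bear on every result. They held 77057, 64742 and 39464 peaks after LPS (replicates 1 to 3) and 19448, 63241, 80216 and 78184 peaks after PBS (replicates 1 to 4). Median fold enrichment of the shortened lists, the authors' ratio of a summit to its local background, was 12.8, 9.83 and 6.58 after LPS and 5.07, 13.9, 17.5 and 16.8 after PBS, 9.73 ± 3.09 (SD, n = 3) against 13.3 ± 5.72 (SD, n = 4; exact two-sided permutation p = 0.343, where the smallest possible p is 0.0571). Outside the short PBS 1 list, all PBS lists thus lay above all LPS lists in fold enrichment. Read depth is not given by peak lists and is unknown here. All 3 LPS lists held 2 peaks on chromosome Y and no peak at the start of Xist, the RNA gene that silences an X chromosome in female cells. PBS 2, 3 and 4 held an Xist peak at percentiles 56.5, 74.1 and 78.8 and 0, 1 and 0 Y peaks, and the short PBS 1 list held neither. Peaks tied to the sex chromosomes therefore moved with the treatment in naive mice, and in these 7 lists the effects of LPS and of such a difference between mice cannot be told apart. Among AF9-experienced LPS lists, replicates 1 and 2 held 3 and 2 Y peaks and no Xist peak, while replicates 3 to 5 held an Xist peak and no Y peak, as did AF9-experienced PBS 2 to 4. Values within those lists are given beside the results below.

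**Figure D1:**
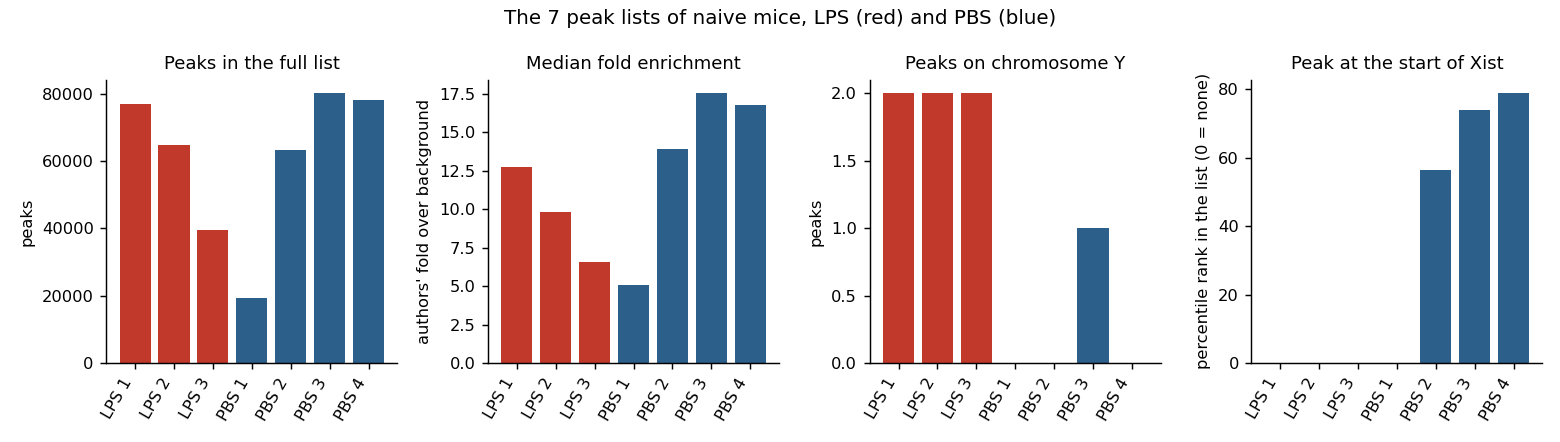
Properties of the 7 naive peak lists, with 1 bar per list (red LPS, blue PBS): peaks in the full list, the authors' median fold enrichment of the 19100 strongest peaks, peaks on chromosome Y, and the percentile rank of the peak at the Xist start. The 3 LPS lists each held 2 Y peaks and no Xist peak, and PBS 2 to 4 held an Xist peak.

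The cells carried open chromatin at the genes that define the sorted population. The gene start of Kit, the receptor of the cKit gate, stood at a mean of 67.6 after LPS and 68.4 after PBS in the shortest lists (difference -0.78; limma adjusted p = 0.974). Starts of Cd34, Meis1, Mecom, Hlf and Flt3 were also measured there, and those of Gata2 and Procr in the deeper lists. Ly6a, which encodes Sca1, had no tested region at either depth. Starts of genes of mature cells were open too. Among 16 monocyte and macrophage markers, 15, 12 and 12 had a gene-start peak in LPS 1 to 3, against 5, 12, 13 and 13 in PBS 1 to 4, and among 20 neutrophil markers the counts were 9, 6 and 5 against 3, 5, 7 and 9. Outside PBS 1 these counts overlapped between the groups, and their part in the results was not tested.

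In the shortest lists, 471 of 23554 regions were called higher after LPS (2.00% of regions tested) and 287 were called lower (1.22%), against a median difference of 0 over all regions tested. At the deeper cut, 2737 of 70009 regions were called higher (3.91%) and 1975 lower (2.82%), where the median of all regions was -0.75. Called regions moved far: the median difference was 36.5 points among those higher and -35.5 among those lower in the shortest lists, and 37.3 and -38.1 points in the deeper lists. A peak in all 3 LPS lists and no PBS list of the shortest length was held by 183 regions, and 85 were in no LPS list and all 4 PBS lists. Looked up in the uncut lists, none of the 183 lacked a PBS peak: PBS 3 and PBS 4 held a weaker peak at all 183, PBS 2 at 170 and the short PBS 1 list at 0. Of the 85, LPS 1 held a weaker peak at 85, LPS 2 at 83 and LPS 3 at 54. None of these regions was therefore a site seen after 1 treatment alone, and what differed was the rank. The calls were made on these same ranks, so nothing is read from how far the groups were apart, here or at the genes named below. LPS lists lay above all PBS lists at 464 of the 471 regions called higher, against 7.30% of all regions tested. They lay below all PBS lists at 280 of the 287 called lower, against 4.99%. With 2 and 3 lists all 2737 and 1975 calls of the deeper cut were free of overlap, against 18.5% and 21.0% of all regions. Calls in either direction made up 3.22% and 6.73% of regions. By position, 404 genes had a linked region higher (3.25% of 12414 genes) and 254 had one lower (2.05%) in the shortest lists, and 1981 (12.6% of 15761) and 1456 (9.24%) in the deeper lists.

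The counts depended on single lists. In the shortest lists they fell to 240 higher and 110 lower without LPS 2, to 306 and 185 without LPS 1, to 266 and 166 without PBS 2 and to 261 and 124 without PBS 3. Regions called lower numbered 141 without LPS 3 and 564 without PBS 1. At the deeper cut they numbered 649 higher and 478 lower without LPS 1, 529 and 301 without LPS 2, 1214 and 706 without PBS 2, and 1237 and 606 without PBS 3. With the presence of at least 2 Y peaks as a covariate (the Y-peak covariate), 136 regions were called higher and 15 lower in the shortest lists, and 1198 and 900 in the deeper lists. All naive LPS lists and no naive PBS list met this limit, so the naive lists could not set the covariate's size. It came from AF9-experienced LPS 1 and 2 against 3 to 5 and was carried over to naive mice. A call can thus end while its difference stays, and neither outcome separates LPS from a sex chromosome difference in naive mice. Ranking by fold enrichment in place of -log10 p left 2 and 2 calls in the shortest lists and gave 5431 and 3541 in the deeper lists. Of the 91 regions followed by name over both depths, 48 lost their call with the Y-peak covariate. Ranked by fold enrichment, 51 kept their call, 37 lost it and 1, the Flt3 start, reversed without a call. Many of these losses are given below with the gene.

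Calls lay mostly away from gene starts. Gene-start regions, which lie within 1 kb of a protein-coding gene's start (or of either end of a gene model without strand), made up 42.1% of the regions tested in the shortest lists but 12.3% of higher and 10.5% of lower calls. Of 9913 gene-start regions, 58 were called higher (0.585%) and 30 lower (0.303%). Inside genes the shares were 3.10% and 1.86% of 7492 regions, and between genes 2.94% and 1.92% of 6149 regions. Gene starts had the lowest shares in the deeper lists too, with 1.52% and 1.46% of gene-start regions called against 4.48% and 3.23% inside genes and 4.45% and 3.03% between genes. When gene starts were called in the deeper lists, the median difference was 8.33 points among those higher and -18.8 among those lower, below the 38.5 and -39.1 points inside genes. Median distance to a gene start was 20.7 kb for regions called higher and 25.0 kb for those called lower in the shortest lists, against 5.60 kb for all regions tested.

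**Figure D2:**
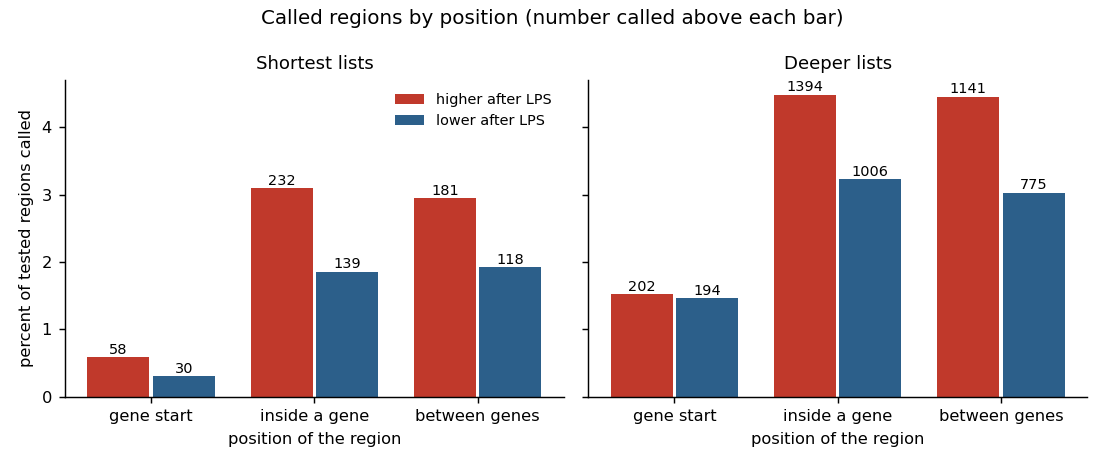
Percent of tested regions called higher (red) or lower (blue) after LPS, by position, in the shortest lists (left) and the deeper lists (right), with the number called above each bar. Gene starts have the lowest share called in each direction at both depths.

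Gene starts that did change are shown here by the 250 bases upstream of the start, for 5 genes whose start ranked higher after LPS and 2 whose start ranked lower. Sequences are from RefSeq (GRCm38.p6), written 5′ to 3′ on the gene's strand. Capitals mark matches on either strand to these motifs: NF-kB (GGAANTTCC), AP-1 (TGANTCA), interferon response (a repeated GAAA with any 2 bases between), C/EBP (TTGCNNAA), PU.1 (GAGGAAGT), TCF/LEF (ATCAAAG), E-box (CAGCTG), KLF (GGGNGGGG) and GATA-factor sites (AGATAA), which can overlap each other.
Cxcl10, chr5:92348890-92349139, minus strand: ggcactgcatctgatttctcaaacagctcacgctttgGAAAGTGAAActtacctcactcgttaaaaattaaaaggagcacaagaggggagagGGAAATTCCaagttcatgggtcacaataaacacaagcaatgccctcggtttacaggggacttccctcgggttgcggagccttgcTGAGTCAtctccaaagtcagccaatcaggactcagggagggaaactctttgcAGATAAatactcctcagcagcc
Birc3, chr9:7873171-7873420, minus strand: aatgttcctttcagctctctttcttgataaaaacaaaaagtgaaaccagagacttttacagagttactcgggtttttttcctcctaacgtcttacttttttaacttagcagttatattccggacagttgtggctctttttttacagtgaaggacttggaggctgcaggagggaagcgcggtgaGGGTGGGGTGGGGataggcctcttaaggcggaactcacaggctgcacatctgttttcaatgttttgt
Mmp8, chr9:7558179-7558428, plus strand: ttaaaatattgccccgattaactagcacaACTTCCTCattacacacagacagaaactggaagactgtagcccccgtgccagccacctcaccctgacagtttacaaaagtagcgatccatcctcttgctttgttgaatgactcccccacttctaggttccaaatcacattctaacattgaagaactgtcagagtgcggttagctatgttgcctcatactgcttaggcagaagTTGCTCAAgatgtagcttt
Cd68, chr11:69666171-69666420, minus strand: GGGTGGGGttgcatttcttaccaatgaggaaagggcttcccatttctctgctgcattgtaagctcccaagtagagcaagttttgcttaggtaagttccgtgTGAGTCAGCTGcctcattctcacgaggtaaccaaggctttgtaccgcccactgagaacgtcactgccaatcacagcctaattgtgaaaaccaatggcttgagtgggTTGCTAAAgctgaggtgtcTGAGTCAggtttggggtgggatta
Mt1, chr8:94178839-94179088, plus strand: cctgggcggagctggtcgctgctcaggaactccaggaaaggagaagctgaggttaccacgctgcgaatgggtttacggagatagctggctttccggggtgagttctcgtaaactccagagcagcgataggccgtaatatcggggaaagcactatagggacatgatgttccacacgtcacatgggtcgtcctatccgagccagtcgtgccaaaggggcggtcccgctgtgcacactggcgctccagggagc
Nkx2-3, chr19:43612075-43612324, plus strand: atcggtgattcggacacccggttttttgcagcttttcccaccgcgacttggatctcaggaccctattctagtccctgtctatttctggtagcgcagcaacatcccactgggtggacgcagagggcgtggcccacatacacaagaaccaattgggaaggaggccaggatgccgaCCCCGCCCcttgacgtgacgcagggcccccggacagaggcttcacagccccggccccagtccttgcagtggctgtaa
Flt3, chr5:147400490-147400739, minus strand: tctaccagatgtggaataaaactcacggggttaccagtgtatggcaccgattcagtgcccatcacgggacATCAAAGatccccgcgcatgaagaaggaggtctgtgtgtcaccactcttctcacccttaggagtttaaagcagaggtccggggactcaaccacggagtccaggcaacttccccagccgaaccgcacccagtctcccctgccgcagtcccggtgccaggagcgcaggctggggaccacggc

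The start of Cxcl10, a chemokine gene induced by interferon and NF-kB, holds an interferon-response match 213 bases, an NF-kB match 158 bases and an AP-1 match 74 bases upstream. Its region (chromosome 5, 92348343 to 92349140) stood at 64.3, 39.3 and 48.0 in the LPS lists and at 0, 0, 0 and 3.78 in the PBS lists of the shortest length. The difference was 49.6 points (SE 8.33; limma adjusted p = 0.00183). All 3 LPS lists lay above all 4 PBS lists, as at 464 of the 471 regions called higher. At the deeper cut it was present in every list, at 88.6 and 80.6 after LPS and 58.5, 60.02 and 69.2 after PBS (difference 22.0; adjusted p = 0.00387, and 0.0689 without LPS 1). Birc3 encodes a ubiquitin ligase of the NF-kB pathway and is itself an NF-kB target, and its start (chromosome 9, 7872498 to 7873310) stood at 89.2, 85.01 and 83.3 after LPS and 59.6, 70.1, 77.7 and 70.0 after PBS (difference 16.5, SE 3.82; adjusted p = 0.0175, and at most 0.0937 without LPS 1 or LPS 2). The start was strong in both groups. With the Y-peak covariate neither start was called at either depth, Cxcl10 at 41.0 points (adjusted p = 0.157) and Birc3 at 18.1 points (0.205) in the shortest lists and at adjusted p of 0.0565 and 0.0909 in the deeper lists. Ranked by fold enrichment, the shortest-list differences were 42.0 points for Cxcl10 (0.135) and 56.5 points for Birc3 (0.168).

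Mmp8, a collagenase stored in neutrophil granules, has a PU.1 and a C/EBP match. Its start (chromosome 9, 7558133 to 7558577) stood at 53.6 and 31.1 after LPS and at 0 in all 3 PBS lists of the deeper cut (difference 42.4, SE 10.9; limma adjusted p = 0.0282). Cd68, a macrophage membrane protein gene with a pair of AP-1 matches, stood at 75.4 and 70.4 after LPS and 51.1, 48.5 and 59.0 after PBS at its start (difference 20.04, SE 5.59; adjusted p = 0.0393). Neither call held without LPS 1, LPS 2, PBS 2 or PBS 3, nor that of Mmp8 without PBS 4 (adjusted p of at most 0.220). At both starts the LPS lists lay above the PBS lists, as at all higher calls of the deeper cut. Mt1, a metal-binding protein gene induced by inflammation, holds none of these letters in the window shown. It was strong throughout, and its start (chromosome 8, 94178808 to 94180064) stood at 97.1 and 95.7 after LPS and 85.4, 83.6 and 86.7 after PBS. LPS minus PBS was 11.1 points (SE 1.32; adjusted p = 0.000871). With the Y-peak covariate, Mmp8 and Cd68 were not called (adjusted p = 0.0663 and 0.0761), nor was Cd68 by fold enrichment (0.108), while Mt1 was called under both and differed by 31.97 points by fold enrichment.

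Starts with lower ranks included Nkx2-3, a homeobox gene. Its region (chromosome 19, 43611854 to 43613088) was at 0 in both LPS lists and at 70.3, 59.2 and 61.9 in the PBS lists of the deeper cut. That is -63.8 points (SE 10.5; limma adjusted p = 0.00279). The start of Flt3, the FLT3-ligand receptor of multipotent and lymphoid progenitors, stood at 84.2, 79.2 and 74.8 after LPS and 92.9, 92.0, 92.1 and 85.7 after PBS in the shortest lists (difference -11.3, SE 2.61; adjusted p = 0.0175). The call ended without LPS 2, LPS 3, PBS 2 or PBS 3 (adjusted p of at most 0.0853), the difference was 16.1 with ranking by fold enrichment, and the deeper lists gave no call. A region at one end of Clcf1, an IL-6 family cytokine gene (chromosome 19, 4221274 to 4222908), was at 0 in all 3 LPS lists and at 33.7, 55.1, 56.4 and 58.2 after PBS. The groups differed by -50.8 points (SE 7.79; adjusted p = 0.00119). Of 25 genes of LPS signalling and HSPC identity whose start was examined whatever its value, 21 had one measured in the shortest lists. Birc3, Cxcl10 and Flt3 were called there, where 0.585% of all gene-start regions were called higher and 0.303% lower. The 18 others differed by -3.70 (Tnfaip3) to 16.2 points (Junb). At the deeper cut Cxcl10, Birc3 and Socs3 were called among 23, where 1.52% of all gene-start regions were called higher and 1.46% lower. The starts of Tlr4, Nfkbia, Nfkb1, Irf1, Irf8, Cebpb and Spi1 were not called at either depth. Nkx2-3 differed by -46.0 points with the Y-peak covariate (adjusted p = 0.0640) and by -13.0 points by fold enrichment (0.292), and the Clcf1 end in the shortest lists by -50.8 points (0.0533) and -8.997 points (0.527), so these calls ended. That of the Flt3 start ended with the Y-peak covariate too (0.177).

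Motif content of called gene starts is a description, since motif matches are not binding sites. Promoters of 300 bases (250 before to 50 after the start) were scored for 127 called higher, 122 called lower and 9334 tested in the deeper lists. AP-1 letters were in 11.8% of those higher and 4.10% of those lower, against 4.69% of those tested and 7.12% of all 16457 autosomal promoters. PU.1 letters were in 9.45% and 2.46% against 3.06%, RUNX letters (TGTGGTT) in 11.02% and 5.74% against 3.58%, GATA letters in 13.4% and 4.92% against 5.89% and C/EBP letters in 13.4% and 6.56% against 7.81%. KLF letters ran the other way, at 40.9% and 55.7% against 51.7%. NF-kB letters (GGAANTTCC) were in 4 promoters called higher (3.15%) and in none of the 122 called lower, against 0.964% of those tested. In the shortest lists, where 39 starts were called higher and 15 lower, AP-1 letters were in 20.5% and 13.3% against 4.08% of those tested. There C/EBP letters were in 7.69% and 6.67% against 7.602%, and RUNX letters in 7.69% and 13.3% against 3.41%. The C/EBP share of higher starts was thus near that of all tested, and the RUNX share was larger among lower than among higher starts, unlike in the deeper lists.

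Regions with the smallest p in the shortest lists are given next. Inside Slc17a4, an organic anion transporter gene, within 1 kb of one gene end (chromosome 13, 23913762 to 23914378), ranks were 66.8, 73.0 and 57.9 after LPS and 0, 0, 0 and 13.9 after PBS. The difference was 62.4 points (SE 7.41; limma adjusted p = 0.000475). Inside Xrcc4, a gene of DNA end joining (chromosome 13, 89889033 to 89889469), they were 69.2, 56.6 and 68.7 after LPS and 19.6, 0, 0 and 0 after PBS (difference 59.9; adjusted p = 0.000475). Inside Glis1, a zinc-finger factor gene (chromosome 4, 107605616 to 107606548), they were 55.8, 56.3 and 49.9 after LPS and 0 in all 4 PBS lists (difference 54.0; adjusted p = 0.000475). Inside Crem, a cAMP-responsive repressor gene on chromosome 18, they were 71.1, 79.3 and 67.3 after LPS and 0, 0, 23.8 and 31.8 after PBS (difference 58.6; adjusted p = 0.000584). Leaving out any of the 7 lists left the calls at these genes in place (adjusted p of at most 0.00793). Ranked by fold enrichment, Slc17a4 and Xrcc4 were still called (adjusted p = 0.0244), while Glis1 and Crem were not (0.0725).

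Among lower regions, one lay 20.7 kb from Tcf7l1, which encodes a DNA-binding partner of beta-catenin (chromosome 6, 72809709 to 72810749), at 11.5, 0 and 7.74 after LPS and 79.7, 70.6, 77.1 and 75.3 after PBS. LPS minus PBS was -69.2 points (SE 8.80; limma adjusted p = 0.000475). One 39.2 kb from Rplp1, a ribosomal protein gene, was at 0 in the 3 LPS lists and at 41.2, 61.4, 61.6 and 51.1 after PBS (adjusted p = 0.00119). One 35.1 kb from Ptprf, a receptor tyrosine phosphatase gene, was at 0 in the 3 LPS lists and at 47.8, 47.4, 52.3 and 49.0 after PBS (adjusted p = 0.00119). The calls at Tcf7l1, Rplp1 and Ptprf held with each list left out (adjusted p of at most 0.00922). With at least 2 Y peaks as a covariate, the regions of Slc17a4, Xrcc4, Glis1 and Crem were still called (adjusted p = 0.0215 to 0.0319), while those of Tcf7l1, Rplp1 and Ptprf were not (adjusted p = 0.0650 to 0.148). Ranked by fold enrichment, Tcf7l1 was called (adjusted p = 0.0244), while Ptprf (0.0725) and Rplp1, at -28.4 points (0.291), were not.

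Leading rises at the deeper cut included a region inside Erg, a transcription factor of HSC maintenance (chromosome 16, 95415825 to 95416661), at 79.3 and 78.8 after LPS and 8.29, 5.66 and 2.15 after PBS. That is 73.7 points (SE 7.92; limma adjusted p = 0.000871). A region 3.49 kb from Serpinb2, which encodes plasminogen activator inhibitor 2 and is induced by LPS in macrophages (chromosome 1, 107496839 to 107497403), stood at 80.0 and 79.6 after LPS and 10.5, 25.7 and 18.7 after PBS (difference 61.5; adjusted p = 0.000871). Inside Lpxn, a leukocyte focal-adhesion protein gene (chromosome 19, 12833625 to 12833993), ranks were 76.5 and 76.9 after LPS and 0, 9.66 and 8.71 after PBS (difference 70.6; adjusted p = 0.000871). At each of them both LPS lists lay above the 3 PBS lists, as at all higher calls of the deeper cut. Leading falls lay inside Plbd2, a lysosomal protein gene, at 0 and 0 after LPS and 71.8, 73.1 and 70.3 after PBS (difference -71.7; adjusted p = 0.00112), and inside Astn2, an astrotactin gene, at 0 and 0 after LPS and 72.1, 68.5 and 69.9 after PBS (difference -70.2; adjusted p = 0.00116). A region 2.51 kb from Tgfb1, which encodes the cytokine TGF-beta 1 that holds HSCs in quiescence, stood at 24.9 and 0.238 after LPS and 81.7, 76.3 and 69.4 after PBS. The groups differed by -63.2 points (SE 8.29; adjusted p = 0.00112). All 6 calls held with each list left out (adjusted p of at most 0.0216) and with the Y-peak covariate (at most 0.0159). Ranked by fold enrichment, the Tgfb1 region differed by -10.9 points and was not called (adjusted p = 0.237), and the 5 others were called.

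**Figure D3:**
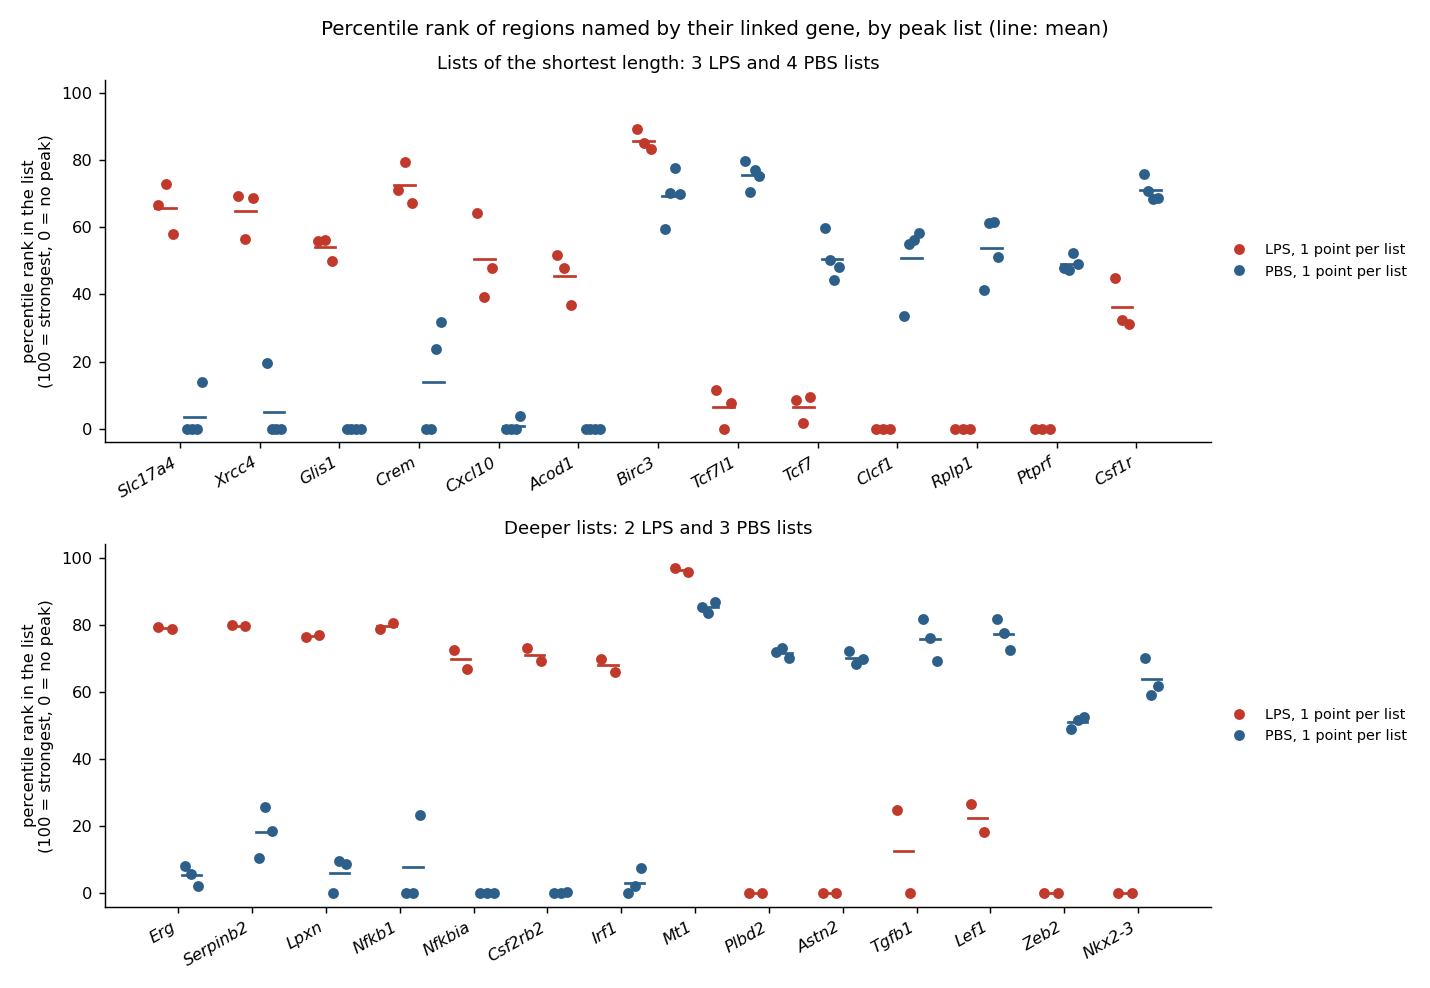
Percentile rank of regions named by their linked gene in each naive peak list, with 1 point per list and a line at the mean (red LPS, blue PBS), in the shortest lists (top) and the deeper lists (bottom). Only called regions are drawn, so the lack of overlap between LPS and PBS points follows largely from that choice.

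The gene lists of LPS signalling are given here by the order of the pathway, with regions linked by position to the nearest gene within 50 kb. Such a link is one of position and shows no target. Among 29 genes of the LPS receptor and TLR signalling, 26 had regions in the deeper lists, and 3 of 116 regions were higher (2.59%) and 2 lower (1.72%), both below the share of all regions tested. Of 40 regions of the shortest lists, 0 were called, against 3.22% of all regions in either direction. A region 4.44 kb from Cd14, the LPS co-receptor gene on chromosome 18, stood at 65.9 and 60.05 after LPS and 10.5, 0 and 11.3 after PBS (difference 55.7, SE 12.4; limma adjusted p = 0.0147, and at most 0.0968 without LPS 1, LPS 2 or PBS 3). Inside Tlr9, the receptor for unmethylated DNA, a region (chromosome 9, 106225988 to 106226735) stood at 57.2 and 65.5 after LPS and 86.4, 82.0 and 81.8 after PBS (difference -22.1, SE 3.68; adjusted p = 0.00297). The groups did not overlap at either region, as at all calls of the deeper cut. Neither region was called with the Y-peak covariate (adjusted p = 0.0596 for Cd14 and 0.0548 for Tlr9), and by fold enrichment Tlr9 differed by -12.0 points (0.527).

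NF-kB subunits and inhibitors had 13 of 122 regions higher (10.7%, against 3.91% of all regions) and 2 lower (1.64%, against 2.82%) in the deeper lists. Of 20 measured genes 9 had a higher region, against 12.6% of all genes, while the median over all 122 was 0.17. Of 49 regions of the shortest lists, 3 were higher (6.12%, against 2.00% of all regions) and 0 lower (against 1.22%). A region 4.29 kb from Nfkb1, which encodes p105 and p50 (chromosome 3, 135696260 to 135696807), stood at 78.7 and 80.6 after LPS and 0, 0 and 23.4 after PBS. The difference was 71.9 points (SE 9.40; limma adjusted p = 0.00112). A region 0.1 kb from Nfkbia, which encodes the inhibitor IkBa (chromosome 12, 55488620 to 55489309, 3.34 kb from the start), stood at 72.5 and 66.9 after LPS and 0 in the 3 PBS lists (difference 69.7, SE 11.1; adjusted p = 0.00232). Both held with each list left out (adjusted p of at most 0.0318), while the starts of these genes were not called. By fold enrichment the Nfkbia region differed by 9.09 points and was not called (adjusted p = 0.4025). In the shortest lists the Nfkb1 region stood at 33.5, 39.5 and 41.4 after LPS and 0 in the 4 PBS lists (difference 38.1; adjusted p = 0.0218), but it was not called without LPS 2, LPS 3, PBS 2 or PBS 3 (at most 0.0790), with the Y-peak covariate (10.7 points, 0.757) or by fold enrichment (16.3 points, 0.265). Inside Traf2, an adaptor of TNF receptors, ranks were 41.8, 41.8 and 32.7 after LPS and 0 in the 4 PBS lists of the shortest length (difference 38.8; adjusted p = 0.00421). Near Bcl3, a nuclear IkB protein gene, they were 69.5 and 59.2 after LPS and 29.97, 18.3 and 10.6 after PBS in the deeper lists (difference 44.7; adjusted p = 0.0160, and at most 0.126 without LPS 1 or LPS 2). Neither Traf2 nor Bcl3 was called with the Y-peak covariate (adjusted p = 0.1395 and 0.0564), and by fold enrichment Traf2 was not (0.354).

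Inflammatory effector genes had 12 of 106 regions higher (11.3%, against 3.91% of all regions) and 0 lower in the deeper lists, with a median of 5.30 points over all 106. Of 25 measured genes 9 had a higher region, against 12.6% of all genes. Inside Acod1, which makes the macrophage metabolite itaconate (chromosome 14, 103048449 to 103049239), ranks were 51.7, 47.8 and 36.7 after LPS and 0 in the 4 PBS lists of the shortest length (difference 45.4, SE 7.20; limma adjusted p = 0.00153). In the deeper lists the same interval stood at 84.5 and 83.3 after LPS and 24.6, 37.0 and 42.6 after PBS (adjusted p = 0.000871). A region 13.1 kb from Il10, the anti-inflammatory cytokine gene (chromosome 1, 131038033 to 131038569), stood at 82.6 and 83.6 after LPS and 35.5, 53.8 and 41.4 after PBS (difference 39.5; adjusted p = 0.00144). These calls held with each list left out at the deeper cut (adjusted p of at most 0.0282). Regions near Il12b, an interleukin 12 subunit gene, and Il1b, the interleukin 1 beta gene, differed by 38.5 and 37.9 points (adjusted p = 0.0107 and 0.0141), but neither was called without LPS 1 or LPS 2 (adjusted p of at most 0.110). With the Y-peak covariate, Il1b in the deeper lists and Acod1 in the shortest lists were not called (adjusted p = 0.0572 and 0.0502). By fold enrichment Acod1 differed by 28.3 points in the shortest lists (0.161), and Il10 by 22.9 points in the deeper lists (0.0432).

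CXC and CC chemokine genes had 8 of 76 regions higher (10.5%, against 3.91% of all regions) and 0 lower (against 2.82%) in the deeper lists (median 5.42 points). In the shortest lists 3 of 22 were higher (13.6%, against 2.00% of all regions) and 0 lower (against 1.22%; median 12.9 points). Beside the start of Cxcl10, a region 3.54 kb from Ccr1, a receptor for inflammatory CC chemokines (chromosome 9, 123957741 to 123958584), stood at 36.2, 36.2 and 43.8 after LPS and 0 in the 4 PBS lists (difference 38.7, SE 6.63; limma adjusted p = 0.00213). A region at the start of Ccl9, a CC chemokine of mouse myeloid cells, stood at 79.5 and 76.9 after LPS and 38.4, 49.2 and 58.9 after PBS in the deeper lists (difference 29.4; adjusted p = 0.00771, and at most 0.0715 without LPS 1 or LPS 2). For interferon-stimulated genes, 3 of 115 regions were higher (2.61%) and 1 lower (0.870%) in the deeper lists, fewer than the share of all regions tested in each direction. One of the 3 lay 42.2 kb from Irf1 (chromosome 11, 53820552 to 53821189), an interferon regulatory factor gene, at 69.8 and 66.1 after LPS and 0, 2.10 and 7.56 after PBS (difference 64.7, SE 11.1; adjusted p = 0.00366). Another lay 2.95 kb from Igtp, an interferon-induced GTPase gene, at 69.3 and 78.1 after LPS and 48.1, 24.1 and 47.5 after PBS (adjusted p = 0.0290, and at most 0.202 without LPS 1, LPS 2 or PBS 3). Igtp was not called with the Y-peak covariate (adjusted p = 0.234). By fold enrichment Ccr1 differed by 59.6 points in the shortest lists, with no call (0.0725), and Ccl9 by 56.1 points.

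AP-1 and immediate early genes had 15 of 163 regions higher (9.20%, against 3.91% of all regions) and 5 lower (3.07%, against 2.82%) in the deeper lists, with a median of 0.59 points. In the shortest lists 2 of 90 were higher (2.22%, near the 2.00% of all regions) and 0 lower (against 1.22%). A region 37.5 kb from Klf4, a Kruppel-like factor of monocytes (chromosome 4, 55488527 to 55489632), stood at 84.8 and 78.4 after LPS and 48.8, 58.8 and 47.4 after PBS (difference 29.9, SE 4.64; limma adjusted p = 0.00212). A region 846 bases from the start of Junb, an AP-1 subunit, stood at 83.7 and 88.4 after LPS and 71.8, 71.8 and 73.5 after PBS (difference 13.7; adjusted p = 0.00451, and 0.0778 without LPS 2). One 34.1 kb from Fosl2, another AP-1 subunit, stood at 70.1 and 67.1 after LPS and 7.54, 14.8 and 13.9 after PBS (difference 56.5; adjusted p = 0.00557, and at most 0.0549 without LPS 1 or LPS 2). The groups did not overlap at any of these, as at all calls of the deeper cut. By fold enrichment the Junb region differed by 27.5 points and was not called (adjusted p = 0.111).

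IL-6 and STAT3 pathway genes had 7 of 170 regions higher (4.12%) and 7 lower (4.12%) in the deeper lists, against 3.91% and 2.82% of all regions, with a median of -0.11 points. Near Osm, the oncostatin M gene (chromosome 11, 4232581 to 4233130), ranks were 51.5, 48.8 and 41.9 after LPS and 0 in the 4 PBS lists of the shortest length (difference 47.4, SE 9.72; limma adjusted p = 0.00801). Near Jak2, a kinase of cytokine receptors (chromosome 19, 29241531 to 29242090), they were 62.3 and 65.2 after LPS and 0, 0 and 10.1 after PBS in the deeper lists (difference 60.4; adjusted p = 0.00406). Lower regions lay at Clcf1, given above, and 30.3 kb from Il6st, the shared receptor chain gp130, at 0 and 5.05 after LPS and 60.3, 50.3 and 49.7 after PBS (difference -50.9; adjusted p = 0.00771, and 0.0583 without LPS 1). The start of Socs3, the feedback inhibitor, was strong in every list, at 95.2 and 94.3 after LPS and 90.6, 89.8 and 88.4 after PBS (difference 5.18; adjusted p = 0.0174, and at most 0.121 without LPS 1 or LPS 2), while a region 5.65 kb away was at 0 in the 3 LPS lists and at 11.8, 35.0, 33.6 and 36.8 after PBS in the shortest lists (difference -29.3; adjusted p = 0.0382, and at most 0.126 with a list left out). With the Y-peak covariate the regions of Jak2 and Il6st and the one away from the Socs3 start were not called (adjusted p = 0.0716, 0.0861 and 0.319). By fold enrichment the Osm region had the same mean in both groups of the shortest lists (adjusted p = 1) and differed by 56.3 points in the deeper lists (0.00716), Il6st by -32.7 points and the Socs3 start by 38.6 points.

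**Figure D4:**
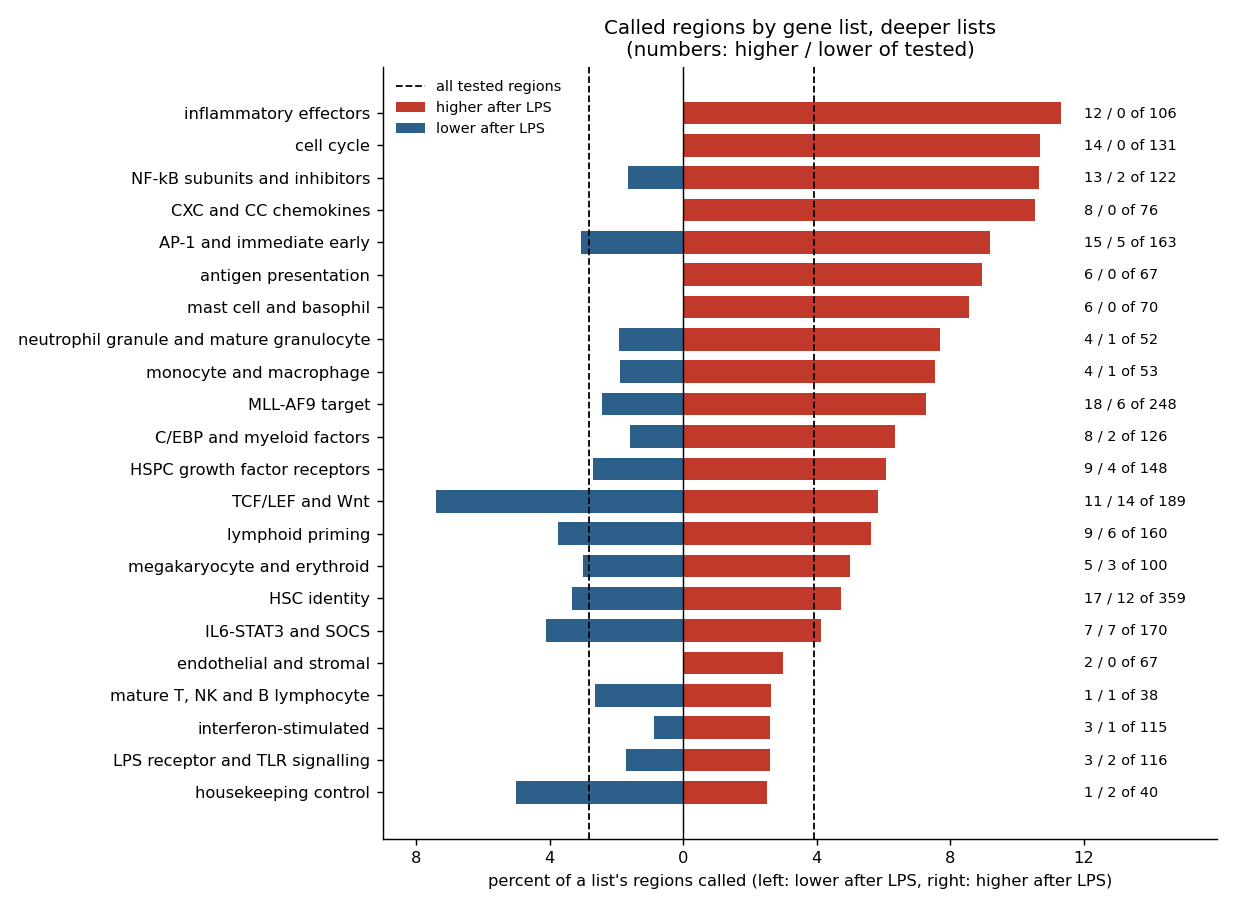
Percent of each gene list's regions called higher (red, right) or lower (blue, left) after LPS in the deeper lists, with the counts called and tested at the right and dashed lines at the shares of all regions tested (3.91% and 2.82%). Inflammatory effector, cell cycle, NF-kB and chemokine lists had 10.5% to 11.3% of regions higher, and the TCF/LEF list had 7.41% lower. Of the 14 higher cell cycle regions, 8 were linked to Cdk6, which also gave 8 of the 18 higher regions of the MLL-AF9 target list.

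Genes of stem cell identity had calls in both directions. Of 359 regions at the deeper cut, 17 were higher (4.74%) and 12 lower (3.34%), with a median of -1.61 points, both near the 3.91% and 2.82% of all regions. Beside the Erg region and the Nkx2-3 start, ranks inside Etv6, an ETS factor gene, were 78.4 and 76.3 after LPS and 27.5, 30.1 and 55.1 after PBS (difference 39.8; limma adjusted p = 0.00471, and 0.0533 without LPS 1). Inside Msi2, an RNA-binding protein gene, they were 71.3 and 75.8 after LPS and 0, 3.25 and 29.6 after PBS (difference 62.6; adjusted p = 0.00559, and 0.0627 without LPS 2). Among genes of the C/EBP and myeloid factor list, 8 of 126 regions were higher (6.35%, against 3.91% of all) and 2 lower (1.59%, against 2.82%), and the lower ones included a region 25.4 kb from Zeb2, a zinc-finger repressor gene, at 0 and 0 after LPS and 48.9, 51.7 and 52.6 after PBS (difference -51.1; adjusted p = 0.00590). Msi2 was not called with the Y-peak covariate (adjusted p = 0.0628).

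Genes that MLL-AF9 is known to bind or raise in leukaemia had 18 of 248 regions higher (7.26%, against 3.91% of all regions) and 6 lower (2.42%, against 2.82%) in the deeper lists, and 7 of 71 higher (9.86%, against 2.00%) and 1 lower (1.41%, against 1.22%) in the shortest lists, in wild-type cells that had met no leukaemia. The counts were led by Cdk6, which encodes a G1 cyclin-dependent kinase needed for HSC entry into the cell cycle and is also on the cell cycle list. Of 27 Cdk6 regions in the deeper lists, 8 were higher and 0 lower, by 15.3 to 58.0 points. Cdk6 thus gave 8 of the 18 higher regions from 27 of the 248. The share above that of all regions rested largely on this gene there. In the shortest lists Cdk6 gave 3 of the 7 higher regions, from 7 of the 71. The start itself differed by -0.21 points (limma adjusted p = 0.990), and 6 of the 8 lay in the stretch from 3466059 to 3503280 of chromosome 5 inside the gene. The region with the smallest p there (3497235 to 3498170) stood at 80.8 and 81.3 after LPS and 50.4, 49.0 and 51.2 after PBS (difference 30.8, SE 4.52; adjusted p = 0.00161). The cell cycle list as a whole had 14 of 131 regions higher (10.7%) and 0 lower, so 6 of its higher regions were linked to other genes. Inside Pbx3, a HOX cofactor gene (chromosome 2, 34359528 to 34360638), ranks were 71.5, 54.6 and 53.0 after LPS and 0, 7.45, 16.9 and 32.6 after PBS in the shortest lists (difference 45.4, SE 7.71; adjusted p = 0.00200). Inside Runx2, a Runt family factor gene (chromosome 17, 44717954 to 44718858), they were 60.03 and 55.7 after LPS and 8.29, 0 and 0 after PBS in the deeper lists (difference 55.1; adjusted p = 0.00453). Pbx3 in the shortest lists was not called with the Y-peak covariate (adjusted p = 0.06095) or by fold enrichment (0.173).

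Growth factor receptor genes had 9 of 148 regions higher (6.08%, against 3.91% of all regions) and 4 lower (2.70%, against 2.82%) in the deeper lists. A region 6.42 kb from Csf2rb2, which encodes the IL-3 receptor beta chain of mice (chromosome 15, 78312141 to 78313048), stood at 73.0 and 69.2 after LPS and 0, 0 and 0.398 after PBS. LPS minus PBS was 70.9 points (SE 9.83; limma adjusted p = 0.00122). One 19.4 kb from Ifnar2, a chain of the type I interferon receptor, stood at 78.9 and 73.8 after LPS and 0, 13.4 and 57.3 after PBS (difference 52.8; adjusted p = 0.0152, and at most 0.111 without LPS 1, LPS 2, PBS 2 or PBS 3). Inside Csf1r, the M-CSF receptor of monocytes on chromosome 18, ranks were 45.02, 32.5 and 31.1 after LPS and 75.9, 70.8, 68.4 and 68.8 after PBS in the shortest lists (difference -34.8, SE 6.73; adjusted p = 0.00543). Flt3 had both directions, with the lower start given above and a region 11.1 kb into the gene at 61.6 and 59.0 after LPS and 23.2, 11.2 and 22.0 after PBS in the deeper lists (difference 41.5; adjusted p = 0.0248, and at most 0.129 without LPS 1, LPS 2 or PBS 3). Csf1r differed by -13.2 points with the Y-peak covariate (adjusted p = 0.551) and by -23.7 points by fold enrichment (0.401), and in the deeper lists by -9.81 points (0.0202, and at most 0.182 without LPS 1, LPS 2, PBS 2 or PBS 3). This deeper call also ended with the Y-peak covariate (-2.88 points, 0.499) and by fold enrichment (-4.27 points, 0.604). With the Y-peak covariate Ifnar2 and the Flt3 region inside the gene were not called either (0.1385 and 0.0699).

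The TCF/LEF and Wnt list was the 1 list of the 22 with more regions lower than higher in which at least 5 were called: 14 of 189 were lower (7.41%, against 2.82% of all regions) and 11 higher (5.82%, against 3.91%) in the deeper lists, with a median of -3.39 points. Inside Lef1, a TCF/LEF factor gene (chromosome 3, 131157227 to 131158035), ranks were 26.6 and 18.3 after LPS and 81.9, 77.7 and 72.6 after PBS. That is -55.0 points (SE 8.30; limma adjusted p = 0.00182). A region 34.9 kb from Tcf7, which encodes TCF1 (chromosome 11, 52318253 to 52319142), stood at 8.67, 1.68 and 9.45 after LPS and 59.8, 50.3, 44.4 and 48.2 after PBS in the shortest lists (difference -44.1, SE 7.91; adjusted p = 0.00309). In the deeper lists 9.24% of all genes had a lower region, with a median of 3 tested regions per linked gene. More regions give a gene more chances of a call. The 4 TCF/LEF factor genes of mice, with 9 to 22 regions, each had a lower one: 1 of 11 at Tcf7, 1 of 9 at Lef1, 2 of 14 at Tcf7l1 and 2 of 22 at Tcf7l2, which also had 3 higher. Of the higher ones, a region 27.4 kb from Tcf7l2 stood at 69.0 and 78.7 after LPS and 28.9, 38.8 and 36.9 after PBS (difference 39.0; adjusted p = 0.00400, and 0.0676 without LPS 2). The Tcf7 region differed by -26.4 points with the Y-peak covariate (adjusted p = 0.330) and by -32.6 points by fold enrichment (0.255), and in the deeper lists by -13.6 points (0.00603, and 0.0630 without LPS 2), where the Tcf7l1 region differed by -22.4 points. Of these deeper calls, that of Tcf7 ended with the Y-peak covariate (-7.93 points, 0.1396) and by fold enrichment (-9.60 points, 0.1398). That of Tcf7l1 ended with the Y-peak covariate (-10.2 points, 0.066) but not by fold enrichment. Tcf7l2 was not called with the Y-peak covariate (0.0601). Lymphoid priming genes had 9 of 160 regions higher (5.63%) and 6 lower (3.75%), against 3.91% and 2.82% of all regions. A region 34.7 kb from Ikzf2, an Ikaros family gene, was at 41.0, 39.0 and 48.7 after LPS and 0 in the 4 PBS lists (difference 42.9; adjusted p = 0.00224), and one 26.4 kb from Bcl11a, a B-lineage factor gene, was at 0 in the 3 LPS lists and 49.9, 28.7, 29.0 and 39.3 after PBS (difference -36.7; adjusted p = 0.0104). Neither Ikzf2 nor Bcl11a was called with the Y-peak covariate (adjusted p = 0.2271 and 0.225) or by fold enrichment (0.0725 and 0.167).

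Markers of mature cells are given beside the shares of all regions, 3.91% higher and 2.82% lower at the deeper cut. There 4 of 52 neutrophil regions were higher (7.69%) and 1 lower, 4 of 53 monocyte regions were higher (7.55%) and 1 lower, 6 of 70 mast cell and basophil regions were higher (8.57%) and 0 lower, 1 of 38 lymphocyte regions was higher and 1 lower, and 2 of 67 endothelial and stromal regions were higher and 0 lower. Their medians were 1.01, -1.86, 2.97, -1.65 and -3.25 points. Inside Mitf, a factor of mast cells and melanocytes (chromosome 6, 97887781 to 97888285), ranks were 62.5 and 57.6 after LPS and 0 in the 3 PBS lists (difference 60.1, SE 9.36; limma adjusted p = 0.00214). Inside Cx3cr1, the fractalkine receptor of monocytes (chromosome 9, 120049430 to 120049834), they were 60.8 and 58.3 after LPS and 0 in the 3 PBS lists (difference 59.5, SE 9.73; adjusted p = 0.00274). Near Itgam, which encodes CD11b, they were 75.9 and 53.6 after LPS and 11.4, 11.2 and 33.2 after PBS (difference 46.1; adjusted p = 0.00894, and 0.122 without LPS 1). Inside Mmp9, another neutrophil gelatinase gene, they were lower, at 16.9 and 14.2 after LPS and 45.9, 69.0 and 57.8 after PBS (difference -42.0; adjusted p = 0.0452, and at most 0.188 with a list left out). The part of mature cells in the inflammatory and monocyte results was not tested. Housekeeping genes had 1 of 40 regions higher and 2 lower, among them one 15.6 kb from Ywhaz (difference -31.4; adjusted p = 0.0415, and at most 0.235 with a list left out). Itgam, Mmp9 and Ywhaz were not called with the Y-peak covariate (adjusted p = 0.0578, 0.345 and 0.153), nor was Mmp9 by fold enrichment (0.0871).

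The AF9-experienced mice gave the same contrast in other libraries. Both contrasts came from the same fit with a shared spread per region, so naive calls and calls in AF9-experienced mice are not independent. Median fold enrichment moved with the treatment there as well. It was 13.6, 11.7, 9.24, 9.16 and 10.5 after LPS (replicates 1 to 5) and 5.34, 19.4, 18.5 and 18.6 after PBS (replicates 1 to 4). Outside the short PBS 1 list, PBS lists again lay above LPS lists. The part of this offset in the shared directions below was not tested. Of the 471 regions higher in naive mice in the shortest lists, 457 (97.0%) differed in the same direction there and 300 (63.7%) were called, against 3.44% of all regions called higher, and of the 287 lower regions 284 (99.0%) differed in the same direction and 127 (44.3%) were called, against 1.74%. None was called the other way. A positive difference in AF9-experienced mice was held by 48.4% of all regions tested in the shortest lists and 44.9% in the deeper lists. These shares stand beside the higher regions only. At the deeper cut 2679 of 2737 higher regions (97.9%) and 1932 of 1975 lower regions (97.8%) kept their direction, and 1649 and 1084 were called against 4.93% and 5.53% of all regions, while 3 were called the other way. Median differences of these regions were 37.3 points in naive and 22.2 points in AF9-experienced mice for those higher, and -38.1 and -23.7 points for those lower. The regions were picked in naive mice, so the naive medians carry that selection.

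The AF9-experienced lists also bear on the sex chromosome peaks. Without the LPS lists that held Y peaks, AF9-experienced LPS 3 to 5 minus PBS 2 to 4 had the same direction as in naive mice at 96.8% of the higher and 97.6% of the lower regions in the shortest lists, and at 93.5% and 96.6% in the deeper lists. Of all regions tested, 46.8% and 43.2% had a positive difference in this contrast, a share that stands beside the higher regions only. Neither side of this contrast held a Y peak. Within AF9-experienced LPS, lists with Y peaks minus lists without differed by a median of -1.92 points at the higher regions and -6.09 points at the lower regions in the shortest lists, and by -0.31 and -1.10 points in the deeper lists. The sign matched the naive difference at 40.3% of the higher and 75.3% of the lower regions in the shortest lists, and at 47.7% and 55.4% in the deeper lists. Of all regions tested, 46.4% and 48.3% had a positive difference here, again a share for the higher regions only.

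**Figure D5:**
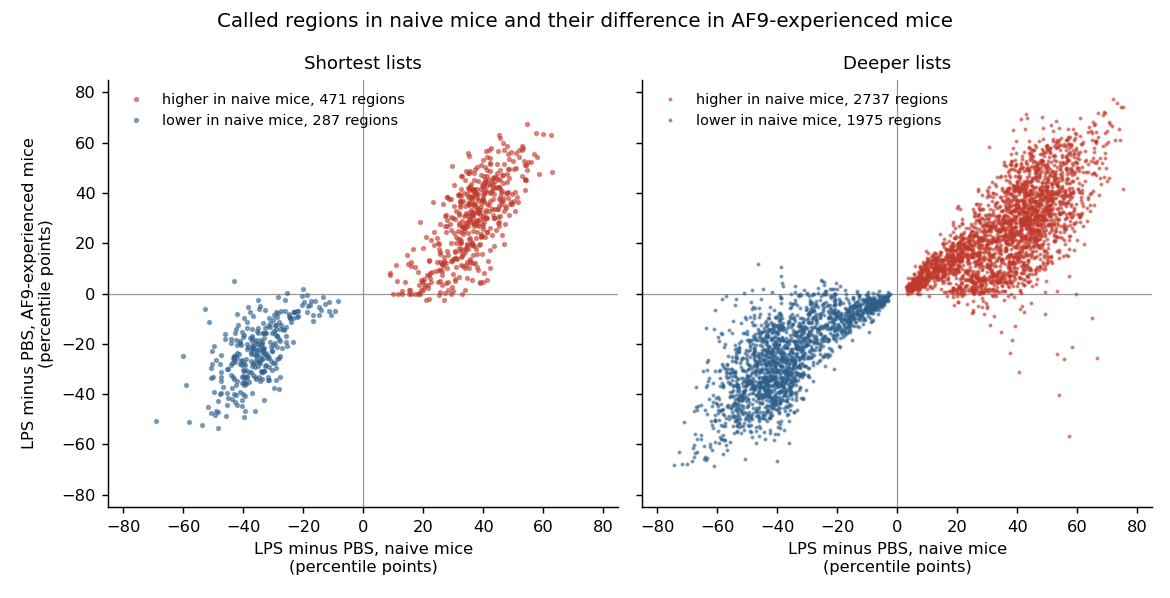
LPS minus PBS in naive mice (x axis, percentile points) against LPS minus PBS in AF9-experienced mice (y axis, percentile points) for regions called in naive mice, with 1 point per region (red higher, blue lower), in the shortest lists (left) and the deeper lists (right). Nearly all points share the sign of both axes: 97.0% and 99.0% in the shortest lists and 97.9% and 97.8% in the deeper lists. Over all regions tested, 48.4% and 44.9% had a positive difference in AF9-experienced mice, shares that stand beside the higher regions only.

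The interaction asks whether the LPS difference of naive mice differs from that of AF9-experienced mice, and limma called 0 regions at both depths. At an unadjusted p under 0.05 there were 693 regions (2.94%) in the shortest lists and 2756 (3.94%) in the deeper lists, and the smallest adjusted p was 0.880 and 0.364. The smallest interaction p included a region inside Rnf180, a ubiquitin ligase gene (chromosome 13, 105139872 to 105140333), at 24.7, 29.96 and 35.4 after LPS and 0 in the 4 PBS lists of naive mice (difference 30.04, SE 4.37; adjusted p = 0.000948), where AF9-experienced mice averaged 0.977 after LPS and 0 after PBS. Inside Fyb, an adaptor of T cells and platelets (chromosome 15, 6574437 to 6574978), naive ranks were 30.8, 27.1 and 27.0 after LPS and 0 in the 4 PBS lists (difference 28.3, SE 4.16; adjusted p = 0.00101), against means of 1.42 after LPS and 0 after PBS in AF9-experienced mice. At Rnf180 and Fyb the naive LPS lists, where ranks were high, were enough to meet the filter of 3 lists. Values at the floor of 0 elsewhere lower the shared spread, so nothing is read from these 2 adjusted p. Near Dyrk3, a kinase gene (chromosome 1, 131116028 to 131116211), naive lists of the deeper cut stood at 53.3 and 61.2 after LPS and 0 in the 3 PBS lists, and AF9-experienced mice averaged 10.5 after LPS and 67.1 after PBS. Its interaction was 114 points (SE 17.8; adjusted p = 0.364), and the naive call ended without LPS 1, LPS 2, PBS 2 or PBS 3 (adjusted p of at most 0.141). By fold enrichment the naive calls of Rnf180 and Fyb ended (adjusted p = 0.283 and 0.131), and with the Y-peak covariate that of Dyrk3 did (0.3225).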

How the data were processed

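Each biological replicate had 1 deposited peak list, made from 2 technical libraries, per the labels. BWA, Picard, MACS3, Trim Galore and FastQC are named with build GRCm38 in the submitters' processing notes. Filters are not given in the sources used here, nor is the use of the 10x chemistry the labels name beside Omni-ATAC. The authors deposited for each peak a fold enrichment (ratio), a -log10 p and a -log10 q. These are the peak's own values, comparable within a list only, and the lowest -log10 q in a list was about 1.30. The lists were cut to equal length, peaks sharing a base were merged, and percentile ranks were fitted with limma 3.58.1 (R 4.3.3; group means, trend and robust options; 16 or 13 lists share 1 estimate of the spread; contrasts over every region held by at least 3 lists, adjusted by Benjamini-Hochberg). Genes came from RefSeq (GRCm38.p6; 21887 protein-coding models, 17492 with strand). On simulated moves of 40 points in 200 regions, the naive contrast recovered 64% in the shortest lists, with 15 false among 143 calls, and 14.5% in the deeper lists, and moves of 20 points were not recovered.

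Members, gene lists and tests were chosen with earlier results of these data known. Regions named are called ones taken from this rule: the 8 smallest p per direction and depth, up to 4 called per gene list, 25 gene starts examined always, and the 3 smallest interaction p. From these the text describes a part, picked by role after values were seen. P-values measure the spread between lists labelled as biological replicates. Alternatives were the rank measure, list length, overlap, windows, filter, lists used, weights, replicate block, covariates, presence, and each list left out. Replicate numbers did not pair the lists.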

Additional observations from a re-analysis of the deposited data

Results flagged for a closer look

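One PBS list stood apart from the other 3 at several regions of the shortest lists, where the gap to its nearest neighbour as a share of the group's range was 1 at Slc17a4 (13.9 against 0), 1 at Xrcc4 (19.6 against 0), 1 at Cxcl10 (3.78 against 0), 1 at Erg (chromosome 16, 3.65 against 0), 0.871 at Clcf1 (33.7 against 55.1 to 58.2), 0.873 at the region 5.65 kb from Socs3 (11.8 against 33.6 to 36.8), 0.876 at the Flt3 start (85.7 against 92.0 to 92.9) and 0.914 at Cd200r3, a mast cell and basophil receptor gene (58.6 against 0 to 5.05). Chance puts about 1 in 20 groups past this limit. A value of 0 is the floor of the scale, so any single list with a peak stands apart there. The number of Y peaks in the PBS lists was set apart in the same way, with 1 in PBS 3 against 0 in the others, a share of 1. The lowest number of Y peaks in an LPS list was 2, above the PBS lists, in data that were kept out of the ranking.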

How the results depend on the processing

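Directions of the regions named held under nearly all settings, but calls did not. Of 91, 48 ended with at least 2 Y peaks as covariate, and when ranked by fold enrichment 37 ended and 1 more reversed without a call. Exceptions were the Clcf1 end, with a difference of 0.25 in presence at -log10 q of at least 5 (shortest lists) and 10.0 points with 500 bp windows (deeper lists), and the Flt3 start, with 16.1 points when ranked by fold enrichment. The cause was not tested. Counts are given as higher and lower. In the shortest lists (471 and 287) they were 2 and 2 when ranked by fold enrichment, 25 and 27 with lists cut at 0.5 of that length, 163 and 85 with naive lists alone, 1731 and 1491 with library weights, 228 and 40 with the number of Y peaks as covariate, 136 and 15 with at least 2 Y peaks as covariate (added after the data were seen), and 443 lower with median fold as covariate. Presence gave 0 and 0 by limma, with 153 and 18 at an unadjusted p under 0.05 in full lists and 18 and 22 at -log10 q of at least 5. Leaving out 1 list gave 240 to 550 and 110 to 564. In the deeper lists (2737 and 1975) they were 5431 and 3541 by fold, 1673 and 1186 with lists cut at 0.5 of that length, 1510 higher with naive lists alone, 3554 lower with weights, 1462 and 936 with median fold, and 1198 and 900 with the Y covariate. Leaving out 1 list gave 529 to 2468 and 301 to 1729. The interaction gave 14 calls with 500 bp windows, 1 with weights and 0 to 6 with a list left out, in the deeper lists, and 0 in all settings of the shortest lists. Same-numbered LPS and PBS lists deviated with r of -0.05, -0.02 and -0.22 in the shortest lists and 0.13 for the 1 pair of the deeper lists, so the numbers do not pair them, and with a replicate block 344 and 161 regions were called in the shortest and 1033 and 613 in the deeper lists. Of the regions named, 21 of 31 in the shortest and 29 of 60 in the deeper lists kept their call with each list left out. Peak lists give no read depth, and with 2 LPS lists the deeper cut rests its spread mostly on the other groups.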
